A study of Mus musculus with 12 samples.

Results

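Messenger RNA of 8 genes of the kainate and delta glutamate receptors was followed in whole hippocampi of male C57Bl/6 mice given Gulf War toxicants or vehicle. The genes were taken by symbol from 41743 in the deposited table: the 5 kainate receptor subunits Grik1 to Grik5, the kainate receptor auxiliary subunits Neto1 and Neto2, and the delta receptor subunit Grid1. All 8 were found, and all 8 passed a filter at a mean of 0.5 RPKM (reads per kilobase of gene model, scaled to library size), as did 13493 genes in all. Toxicant mice received daily subcutaneous injections on weekdays for 2 weeks, of 1 mixture. It held pyridostigmine bromide at 2.5 mg/kg and chlorpyrifos at 12.5 mg/kg, which both inhibit cholinesterase, and the insect repellent DEET at 7.5 mg/kg. Control mice received vehicle. Mice of both groups were 12 weeks old by their labels, and tissue was taken when the exposure ended. Each group had 6 labelled samples from different animals, but the columns of control 4 and control 5 were identical in every gene. They were counted as 1 library, control 4-5, which left 5 control and 6 toxicant libraries.

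Kainate receptors are glutamate-gated cation channels assembled from subunits around a central pore. The products of Grik1, Grik2 and Grik3 form channels by themselves, whereas those of Grik4 and Grik5 bind agonist with high affinity and need a partner from the first set. Neto1 and Neto2 encode membrane proteins that bind kainate receptors and slow their closing. In the hippocampus these receptors are known above all from the mossy fibre synapses between dentate granule cells and CA3 pyramidal cells and from interneurons. The delta receptor encoded by Grid1 works mainly as a synaptic organiser, held by secreted cerebellins to presynaptic neurexins.

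The members lay on 8 different chromosomes, and 6 of them spanned more than 100 kb. In GRCm38 (GENCODE M21), Grik1 (ENSMUSG00000022935) lay on chromosome 16 from 87895900 to 88290265 and Grik3 (ENSMUSG00000001985) on chromosome 4 from 125490700 to 125714173. Grik4 (ENSMUSG00000032017) lay on chromosome 9 from 42518135 to 42944493, Neto2 (ENSMUSG00000036902) on chromosome 8 from 85636588 to 85700924 and Grid1 (ENSMUSG00000041078) on chromosome 14 from 34820108 to 35583379. Grik5 (ENSMUSG00000003378) spanned 62.5 kb of chromosome 7, from 25009849 to 25072346, and Grik2 (ENSMUSG00000056073) spanned 694 kb of chromosome 10, from 49094833 to 49788766. All 8 spanned more than the median tested gene (23.0 kb). Their transcripts differed widely in GC content. Neto2 was at 38.2% GC, Neto1 at 39.95%, Grik2 at 41.6%, Grik1 at 47.1%, Grid1 at 50.01%, Grik4 at 53.3%, Grik3 at 54.2% and Grik5 at 60.8%, against a median of 50.4% over the tested genes. Neto2 was thus richer in A and T than all but 1.42% of tested genes, and 96.7% of tested genes had a lower GC content than Grik5.

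Promoter windows are shown for Grik5 and Grik2, the most abundant subunit and the channel-forming subunit that varied against it from library to library. Each runs from 250 bases before to 50 bases after a RefSeq transcription start (GRCm38.p6), 5′ to 3′ on the gene's own strand, the minus strand in both. Capitals mark GC boxes, the letters GGGCGG or their reverse complement CCGCCC. The Grik5 window is chr7:25072320-25072619 and the Grik2 window is chr10:49788705-49789004.
Grik5: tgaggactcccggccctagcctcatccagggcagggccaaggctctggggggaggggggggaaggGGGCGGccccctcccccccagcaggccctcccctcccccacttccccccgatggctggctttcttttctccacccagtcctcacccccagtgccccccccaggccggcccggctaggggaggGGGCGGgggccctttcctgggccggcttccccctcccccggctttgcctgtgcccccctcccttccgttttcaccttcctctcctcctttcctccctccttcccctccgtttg
Grik2: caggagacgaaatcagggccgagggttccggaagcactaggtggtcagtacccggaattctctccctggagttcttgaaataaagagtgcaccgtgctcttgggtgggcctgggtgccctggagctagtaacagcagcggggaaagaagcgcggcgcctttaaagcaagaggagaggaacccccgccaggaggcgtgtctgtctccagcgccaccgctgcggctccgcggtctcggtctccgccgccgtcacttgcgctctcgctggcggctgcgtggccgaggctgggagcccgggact
The Grik5 window held 2 GC boxes and 10 CpG pairs at 72.0% GC, and the Grik2 window held 0 GC boxes and 26 CpG pairs at 64.7% GC. Of 32851 windows of this length, 35.7% held at least 1 GC box, and the median window had 7 CpG pairs. Grik3 had 7 GC boxes and Grik4 had 2. Neto2 had 2 at one of its start sites and 0 at the other.

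Depth came to 21.5 M to 34.9 M reads per library, recovered from the RPKM steps and exon lengths, and was lower in toxicant (24.7 M ± 2.68 M, SD, n = 6) than in control libraries (29.6 M ± 3.61 M, SD, n = 5; exact permutation p = 0.0260). The share of those reads that lay on annotated genes averaged 85.4% ± 4.58 (SD) in the 5 control libraries and 80.8% ± 2.68 (SD) in the 6 toxicant ones (exact permutation p = 0.0714), and in single libraries it ran from 76.8% (toxicant 4) to 89.5% (control 1). This share counts the reads behind the RPKM values, recovered through exon lengths. Whether the remaining reads lay in introns or between genes was not measured. Among controls the share was lowest in control 2, at 78.4%, followed by control 4-5 at 83.1%, and the others were at 87.4% to 89.5%. The nuclear-retained RNA Malat1 was at 154 ± 127 RPKM in control and 258 ± 77.0 RPKM in toxicant libraries, and the range over all libraries was 45.95 to 345 RPKM. Hippocampal and neuronal genes were present throughout. Prox1, a factor of dentate granule cells, was at 9.67 ± 2.44 RPKM in control and 9.19 ± 1.96 RPKM in toxicant libraries, and the vesicular glutamate transporter gene Slc17a7 at 261 ± 55.3 and 227 ± 27.5 RPKM. Markers of oligodendrocytes had a median log2 fold change of -0.50 (8 of 10 lower), CA1 markers of -0.27 (6 of 6), dentate markers of -0.25 (7 of 8), CA3 markers of -0.18 (5 of 6) and interneuron markers of -0.10 (8 of 11). The median was -0.53 for choroid plexus markers (6 of 6 lower), -0.34 for endothelial markers (6 of 7), -0.25 for microglial markers (8 of 8) and 0.56 for nuclear-retained RNAs (9 of 9 higher), where the median over all tested genes was -0.11. The list median was -0.16 for neuron markers (6 of 8 lower), -0.14 for astrocyte markers (5 of 8) and -0.13 for oligodendrocyte precursor markers (7 of 7). For thalamus markers it was -0.19 (3 of 5 lower). Of all tested genes, only 30.0% had a log2 fold change above 0. Summed choroid plexus marker levels ran from 16.4 to 2886 RPKM among controls and from 14.8 to 1801 RPKM among toxicant libraries. Summed interneuron marker levels ran from 267 to 427 RPKM in control and from 284 to 377 RPKM in toxicant libraries, and no marker of these lists was at 0. In whole tissue, fewer cells of a type and less RNA per cell cannot be told apart, and the part of these shifts in the results below was not tested.

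Among the 8 genes, Grik5 was the most abundant per length of gene model in every library and Grik1 the least. The mean RPKM over 11 libraries was 49.8 for Grik5, 14.3 for Neto1, 9.27 for Grid1, 8.43 for Grik4, 5.72 for Neto2, 4.23 for Grik3, 3.80 for Grik2 and 1.30 for Grik1. Neighbours in this order were compared by their log2 ratio within each library (exact sign-flip permutation test, two-sided, adjusted over the 7 pairs). Grik5 exceeded Neto1 by 1.82 ± 0.468 (SD, n = 11, exact permutation, adjusted p = 0.00228) and Grik2 exceeded Grik1 by 1.51 ± 0.425 (adjusted p = 0.00228), each in 11 of 11 libraries. Grid1 and Grik4 were close, yet Grid1 was higher in 11 of 11 libraries, by 0.13 ± 0.0918 on the log2 scale (adjusted p = 0.00228). Neto1 exceeded Grid1 in 10 libraries (adjusted p = 0.00684) and Grik4 exceeded Neto2 in 10 (adjusted p = 0.00342). Neto2 exceeded Grik3 in 8 libraries by 0.41 ± 0.488 (adjusted p = 0.0262), and that call was lost without control 2, toxicant 3 or toxicant 6 (adjusted p up to 0.0524). In controls Neto2 was the higher in only 2 of 5 libraries (0.15 ± 0.605). Grik3 and Grik2 did not differ beyond their spread: the ratio was 0.20 ± 0.602, with Grik3 higher in 6 of 11 libraries (adjusted p = 0.279). Grik3 was the higher in 4 of 5 control libraries (0.48 ± 0.754), and Grik2 was the higher in 4 of 6 toxicant libraries (0.03 ± 0.359). In the 5 control libraries alone the smallest p the test allows is 0.0625. The length used was the summed exon length over all annotated isoforms. It was 13246 bases for Grik2, the longest of the 8, and 5168 for Grik5, so a level per length is understated where long exons belong to isoforms not used in this tissue. The reads behind the values ran from 157 to 330 per library for Grik1, from 792 to 2288 for Grik2 and from 5000 to 9899 for Grik5.

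**Figure D1:**
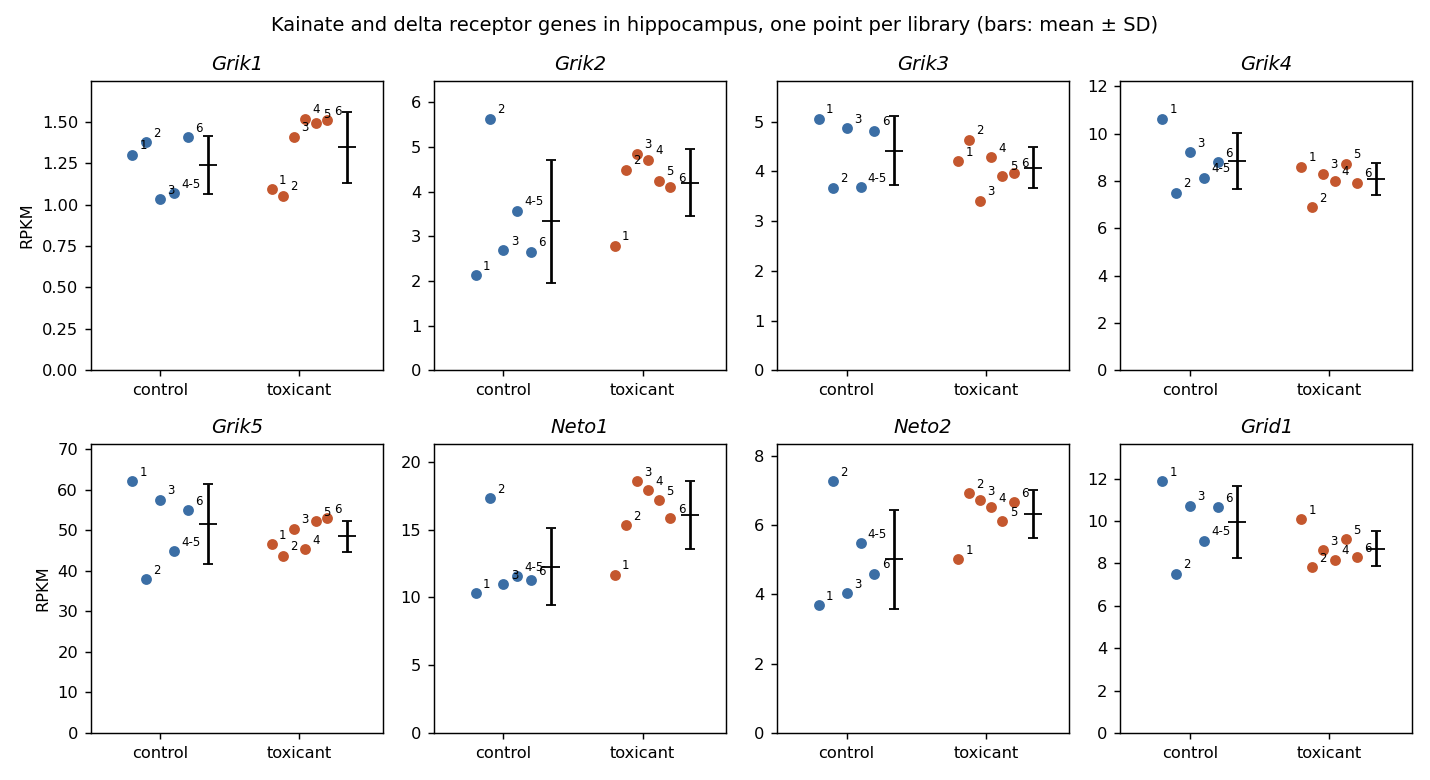
RPKM (vertical axis, from 0, a scale of its own in each panel) of the 8 genes in 5 control and 6 toxicant libraries; each point is 1 library with its replicate number, and the bar beside each group is the mean ± SD. Control 2 lies above every toxicant library for Grik2 and Neto2 and below every one for Grik5 and Grid1. For Grik1, Grik3, Grik4 and Neto1 it lies among them, and the groups overlap for every gene.

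In toxicant hippocampi the auxiliary subunits Neto1 and Neto2 and the channel-forming subunit Grik2 had higher mean levels than in controls, with log2 fold changes from 0.34 to 0.39. The other 5 genes lay between -0.18 and 0.09. None of the 8 passed the test across all genes: by limma, 0 of 8 members and 0 of 13493 genes (0%) were at an adjusted p under 0.05. At an unadjusted p under 0.05, Neto1 and Neto2 were higher, as were 3.33% of all tested genes, and 0 members were lower, as were 17.0%. Of the 8 members, 4 had a log2 fold change above 0, against 30.0% of all tested genes. The median of the members was 0.01. The groups overlapped for 8 of 8 members, whereas 2.14% of tested genes had groups that did not overlap.

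Of the subunits that form channels by themselves, Grik1 was at 1.30, 1.38, 1.03, 1.07 and 1.41 RPKM in controls 1, 2, 3, 4-5 and 6, and at 1.05 (lowest), 1.45 (median) and 1.52 RPKM (highest) in toxicant libraries. Toxicant 3, 4, 5 and 6 lay above the highest control, and toxicant 1 and 2 among the low ones. The means of 1.24 ± 0.176 (SD, n = 5) and 1.35 ± 0.215 RPKM (SD, n = 6) differed by 0.09 ± 0.10 (SE) on limma's log2 scale (adjusted p = 0.559), less than the spread between libraries. Grik2 was at 2.12, 5.63, 2.68, 3.57 and 2.65 RPKM in the same controls, and at 2.78, 4.37 and 4.85 RPKM (lowest, median, highest) in toxicant libraries. Control 2 was above every toxicant library and the other 4 controls were below 5 of the 6. The group means were 3.33 ± 1.39 and 4.20 ± 0.747 RPKM, and limma put the log2 fold change at 0.34 ± 0.20 (adjusted p = 0.285). Grik3 was at 5.06, 3.68, 4.87, 3.68 and 4.82 RPKM in controls and at 3.41, 4.09 and 4.64 RPKM in toxicant libraries. Its controls formed a high set (1, 3 and 6) and a low pair (2 and 4-5), and 5 of 6 toxicant libraries lay between them. The log2 fold change was -0.10 ± 0.10 (limma adjusted p = 0.491), close to the median of all genes.

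The subunits of high agonist affinity were lower in mean by about as much as the median gene. Grik4 was at 10.6, 7.50, 9.21, 8.14 and 8.80 RPKM in controls and at 6.88, 8.16 and 8.73 RPKM in toxicant libraries. All 6 toxicant libraries were below the control mean, and 1 of them, toxicant 2, was below the lowest control. The log2 fold change was -0.12 ± 0.09 (limma adjusted p = 0.379). Grik5 was at 62.0, 37.9, 57.5, 44.8 and 54.96 RPKM in controls and at 43.7, 48.5 and 52.9 RPKM in toxicant libraries. Every toxicant library lay inside the control range, which spanned 1.64-fold against 1.21-fold in toxicant libraries. The log2 fold change was -0.07 ± 0.12 (limma adjusted p = 0.703), and without control 1 it was 0.01.

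Neto1 was at 10.3, 17.3, 10.95, 11.5 and 11.2 RPKM in controls and at 11.7, 16.5 and 18.5 RPKM in toxicant libraries. Of the controls, 4 were below every toxicant library, and control 2 lay above 4 of the 6. The means were 12.3 ± 2.85 and 16.1 ± 2.48 RPKM, and limma put the difference at 0.39 ± 0.14 on the log2 scale (adjusted p = 0.221). Neto2 was at 3.68, 7.26, 4.03, 5.47 and 4.597 RPKM in controls and at 5.01, 6.58 and 6.91 RPKM in toxicant libraries. Control 2 was above all toxicant libraries, and toxicant 1 was below control 4-5. The means were 5.01 ± 1.43 and 6.32 ± 0.696 RPKM, which limma put at 0.34 ± 0.14 on the log2 scale (adjusted p = 0.234). Neto1 (ENSMUSG00000050321) spanned 112 kb, and 2.62% of its exon bases were shared with a gene on the opposite strand that was at 0.0927 RPKM. The delta receptor gene Grid1 was at 11.9, 7.51, 10.7, 9.06 and 10.6 RPKM in controls and at 7.83, 8.46 and 10.1 RPKM in toxicant libraries. Control 2 was below every toxicant library. The means were 9.96 ± 1.70 and 8.69 ± 0.817 RPKM, a difference of -0.18 ± 0.11 in limma's fit (adjusted p = 0.309).

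Whether members passed depended on the libraries kept and on the model fitted. Without control 2, Grik2 (0.53 ± 0.15, limma adjusted p = 0.0261), Neto1 (0.51 ± 0.11, adjusted p = 0.0227) and Neto2 (0.47 ± 0.11, adjusted p = 0.0230) were called higher, and Grid1 (-0.27 ± 0.09, adjusted p = 0.0384) was called lower. In that fit 8.56% of all tested genes were called higher and 28.1% lower. Without both control 1 and control 2, chosen after seeing the data as the libraries with the highest and lowest Grik5, 0 members were called, while the log2 fold changes were 0.43 for Grik2, 0.48 for Neto1, 0.39 for Neto2 and -0.21 for Grid1 (limma adjusted p = 0.0915, 0.0798, 0.0821 and 0.125). Down-weighting of variable libraries called the same 3 members higher and Grik3, Grik5 and Grid1 lower, with 21.2% of all genes called higher and 49.6% lower. A separate fit without weights took as covariate the leading component of the residuals left after the group fit. By construction this changed no fold change and lowered the SE, for Neto2 from 0.14 to 0.05, so its calls are no separate support. It called the same 3 higher and Grid1 lower, with 12.9% and 35.6% of all genes called.

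The relative makeup of the kainate receptor transcripts did not differ between groups beyond the spread of the libraries. Grik5 made up 73.8% ± 3.75 (SD) of the summed Grik1 to Grik5 RPKM in the 5 control libraries and 73.2% ± 1.51 (SD) in the 6 toxicant ones. Grik4 followed with 12.8% ± 0.602 and 12.2% ± 0.868, Grik3 with 6.38% ± 0.258 and 6.20% ± 0.970, Grik2 with 5.14% ± 2.98 and 6.35% ± 1.18 and Grik1 with 1.82% ± 0.410 and 2.03% ± 0.254. Exact permutation of the group labels gave p from 0.221 (Grik4) to 0.732 (Grik5) for these shares, and the adjusted p was 0.758 for each. Without control 2 the difference in share went from 1.21 to 2.44 points for Grik2 and from -0.64 to -2.20 points for Grik5 (exact permutation, adjusted p = 0.114 for both). Neto1 made up 71.2% ± 2.31 of the Neto1 and Neto2 sum in control and 71.6% ± 2.11 in toxicant libraries (exact permutation p = 0.758). In single libraries the ratio of Neto1 to Neto2 ran from 2.11 (control 4-5) to 2.81 (toxicant 5), and their sum from 14.0 to 25.3 RPKM. The Grik2 share was 2.62% in control 1, 10.04% in control 2, 3.56% in control 3, 5.82% in control 4-5 and 3.65% in control 6, and 4.399% to 7.40% in toxicant libraries. In control 2 Grik5 had its lowest share, 67.6%. Grik3, by contrast, kept within 6.00% to 6.63% in controls and ran from 5.00% to 7.64% in toxicant libraries, with 3 of these above the highest and 3 below the lowest control.

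**Figure D2:**
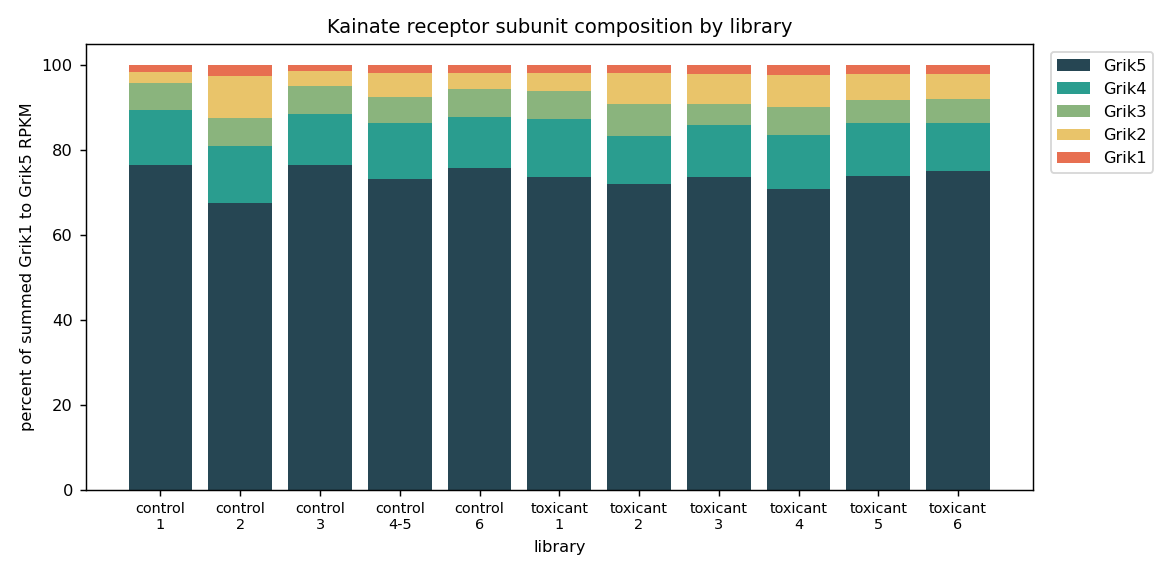
Share of each kainate receptor subunit (percent of the summed RPKM of Grik1 to Grik5, vertical axis) in each of 11 libraries (horizontal axis); each stacked bar is 1 library. Grik5 takes 67.6% to 76.4% in every library, and the Grik2 segment is widest in control 2 (10.04%) and narrowest in control 1 (2.62%).

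From library to library the members moved in opposite sets, grouped here after their values were seen. Levels were taken as log2(RPKM + 0.5) minus the library's median over all tested genes, and the 28 pairs were compared over 11 libraries. Grik2, Neto1 and Neto2 moved together. The closest pair was Grik2 with Neto2 (Pearson r = 0.96, permutation p = 1e-05, which is the smallest that the draws can give, adjusted p = 0.00028; Spearman rho = 0.93, permutation p = 7e-05; r = 0.95 without the 2 libraries farthest from the median of Grik2). The same held for Grik2 with Neto1 (r = 0.93, permutation p = 8e-05, adjusted p = 0.000747; rho = 0.92, permutation p = 0.00017; r = 0.90 without 2 libraries). In the other set, Grid1 moved with Grik4 (r = 0.91, permutation p = 7e-05, adjusted p = 0.000747; rho = 0.93, permutation p = 5e-05; r = 0.89 without 2 libraries). Grik2 and Grid1 moved against each other (r = -0.92, permutation p = 0.00014, adjusted p = 0.00084; rho = -0.84, permutation p = 0.00229; r = -0.87 without 2 libraries). All 12 pairs that joined Grik2, Neto1 or Neto2 with Grik3, Grik4, Grik5 or Grid1 had a negative r (-0.92 to -0.48), of which 7 had an adjusted permutation p under 0.05. Without the 2 farthest libraries they ran from -0.87 to -0.18. The same was not computed for pairs of other genes, so the opposition cannot be read as particular to the members. Over 13488 tested genes, r of GC content with a gene's level relative to its mean ran from -0.57 (control 2) to 0.63 (control 1). The 3 pairs of Grik3 with Grik4, Grik5 and Grid1 did not pass (r = 0.47, 0.53 and 0.63; adjusted permutation p = 0.19, 0.145 and 0.0792). Within the 6 toxicant libraries r was -0.14, -0.55 and 0.18 for these pairs, -0.04 for Grik5 with Neto1, 0.90 for Grik2 with Neto2, 0.85 for Grik4 with Grid1 and -0.83 for Grik2 with Grid1. Grik1 passed with 0 of its 7 partners (r from -0.21 to 0.64).

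**Figure D3:**
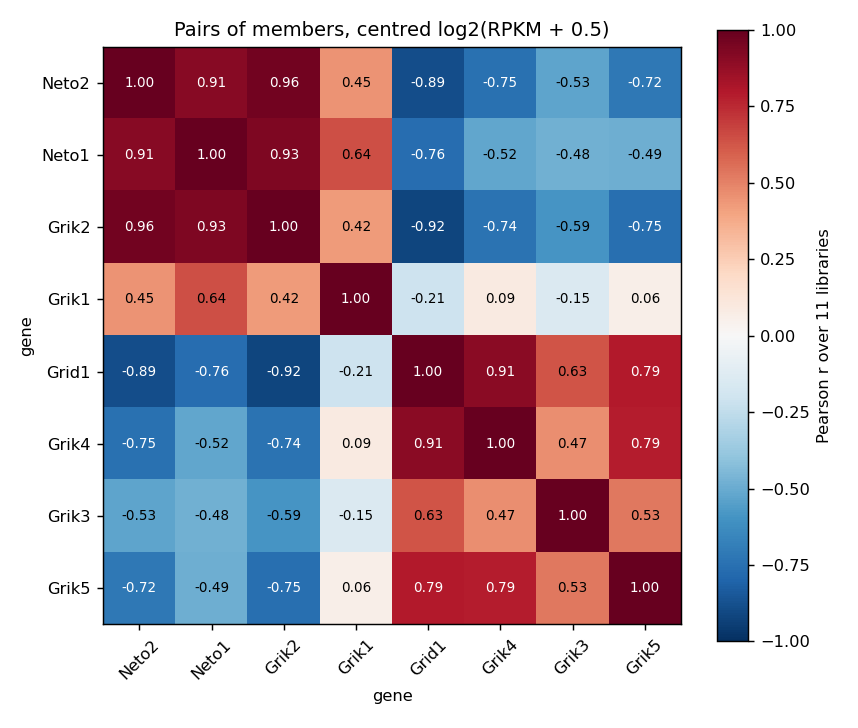
Pearson r between members over 11 libraries, for log2(RPKM + 0.5) centred on each library's median; both axes list the genes, red is positive and blue negative. Neto2, Neto1 and Grik2 form a block with r of at least 0.91 at the upper left, and Grid1, Grik4, Grik3 and Grik5 have r from 0.47 (Grik3 with Grik4) to 0.91 (Grik4 with Grid1) at the lower right.

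Both sets followed the share of a library's reads that lay on annotated genes, a relation chosen after earlier results of these data were known. Levels were not centred here, and RPKM was scaled to all reads of a library, on genes or not. A larger share thus raises the RPKM of a typical gene by arithmetic, so a positive r is in part built in. Of 8 relations, 6 had an adjusted permutation p under 0.05. How many of all tested genes would pass was not computed, so this count cannot be read as particular to the members. The levels (log2(RPKM + 0.5)) of Grik2 (Pearson r = -0.92, permutation p = 4e-05, adjusted p = 0.00016; Spearman rho = -0.95, permutation p = 5e-05), Neto2 (r = -0.92, permutation p = 5e-05, adjusted p = 0.00016; rho = -0.89, permutation p = 0.00052) and Neto1 (r = -0.85, permutation p = 0.00065, adjusted p = 0.0013; rho = -0.89, permutation p = 0.00044) were higher where fewer reads lay on genes. Those of Grid1 (r = 0.93, permutation p = 6e-05, adjusted p = 0.00016; rho = 0.93, permutation p = 0.00017), Grik5 (r = 0.83, permutation p = 0.00194, adjusted p = 0.00259; rho = 0.78, permutation p = 0.0066) and Grik4 (r = 0.82, permutation p = 0.00116, adjusted p = 0.00186; rho = 0.82, permutation p = 0.0034) were lower there. Grik3 (r = 0.58, permutation p = 0.0659, adjusted p = 0.0753; rho = 0.58, permutation p = 0.0655) and Grik1 (r = -0.27, permutation p = 0.415, adjusted p = 0.415; rho = -0.45, permutation p = 0.171) did not pass. Without control 1 and toxicant 4, the libraries farthest from the median share, r was -0.91 for Grik2, -0.94 for Neto2, -0.79 for Neto1, 0.93 for Grid1, 0.79 for Grik5 and 0.82 for Grik4. Within the 6 toxicant libraries these 6 kept their sign (r = -0.69, -0.58, -0.56, 0.71, 0.61 and 0.52), and Grik3 did not (r = -0.36). With 5 control libraries no value was computed for that group alone.

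**Figure D4:**
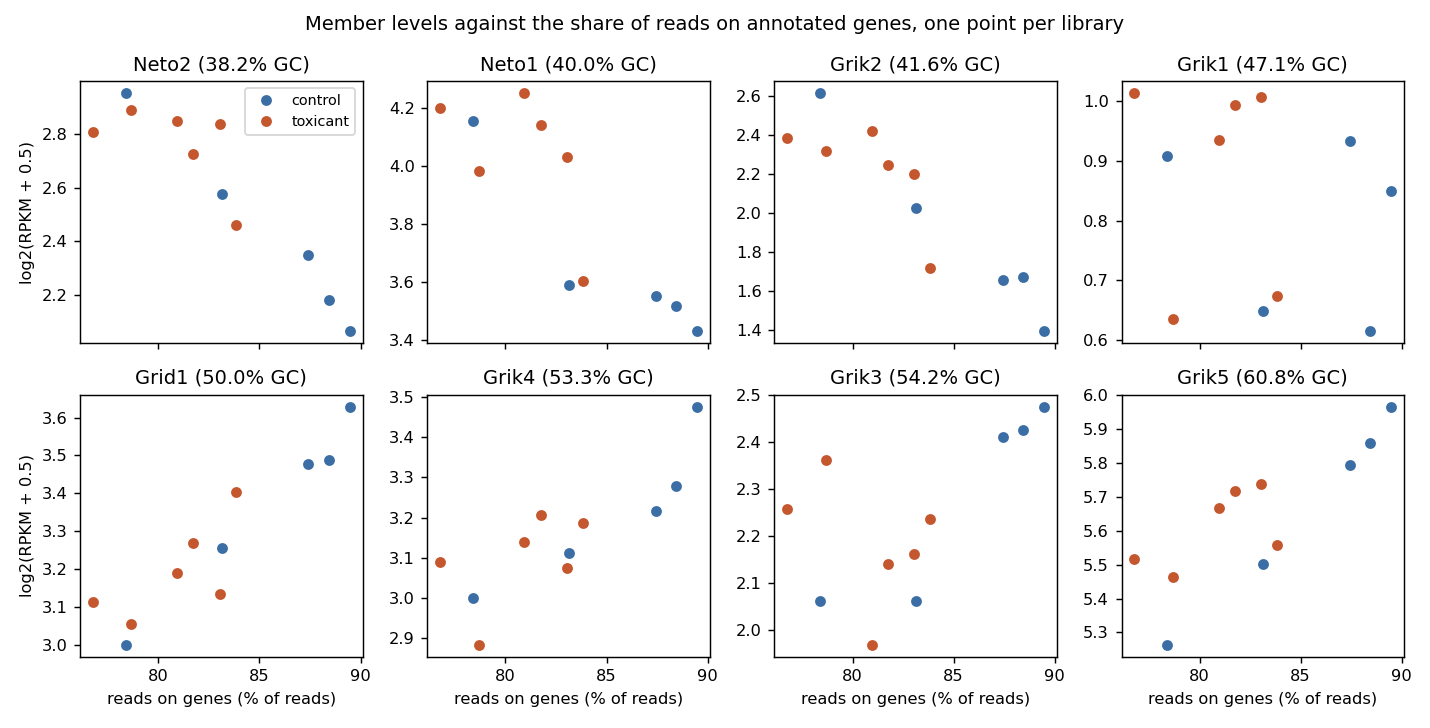
Level of each member, as log2(RPKM + 0.5) on the vertical axis, against the percent of a library's reads on annotated genes on the horizontal axis; each point is 1 of 5 control or 6 toxicant libraries. The upper row, apart from Grik1, slopes down (Neto2, Neto1 and Grik2, at 38.2% to 41.6% GC) and the lower row slopes up (r from 0.58 for Grik3 to 0.93 for Grid1).

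The differences between groups shrank for 7 of the 8 members when that share entered the fit. With it as a covariate the log2 fold change was -0.07 ± 0.11 for Grik2, 0.14 ± 0.11 for Neto1 and 0.05 ± 0.09 for Neto2, and it was 0.04 ± 0.06 for Grid1, 0.02 ± 0.07 for Grik4 and 0.01 ± 0.10 for Grik3, while the median of all genes was -0.03. Grik1 went from 0.09 to 0.06 ± 0.12. Grik5 went the other way, to 0.17 ± 0.07 (limma adjusted p = 0.328). The share itself averaged 85.4% in control and 80.8% in toxicant libraries. Its part and that of the exposure therefore cannot be fully told apart in this fit. Members of low GC content had the highest fold changes, as did genes of low GC content in general. The median log2 fold change was 0.29 over 496 tested genes at or under 40% GC, where Neto1 and Neto2 lie, 0.15 over 2372 genes from 40% to 45%, where Grik2 lies, and -0.09 over 3577 genes from 45% to 50%, where Grik1 lies. It was -0.17 over 3609 genes from 50% to 55%, which hold Grid1, Grik4 and Grik3, and -0.15 over 649 genes above 60%, which hold Grik5. With each library's GC trend removed, an alternative added after seeing the data, the log2 fold changes were 0.14 ± 0.09 for Grik2, 0.14 ± 0.08 for Neto1, 0.05 ± 0.04 for Neto2, 0.13 ± 0.11 for Grik1 and 0.08 ± 0.04 for Grik5 (limma adjusted p from 0.400 to 0.551). Scaling by median ratios, which brought the median of all genes to 0.0015, gave 0.51 ± 0.17 for Neto1, 0.46 ± 0.17 for Neto2 and 0.45 ± 0.22 for Grik2 (limma adjusted p from 0.371 to 0.388), and turned the sign of Grik3 (0.02), Grik4 (0.01) and Grik5 (0.07).

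**Figure D5:**
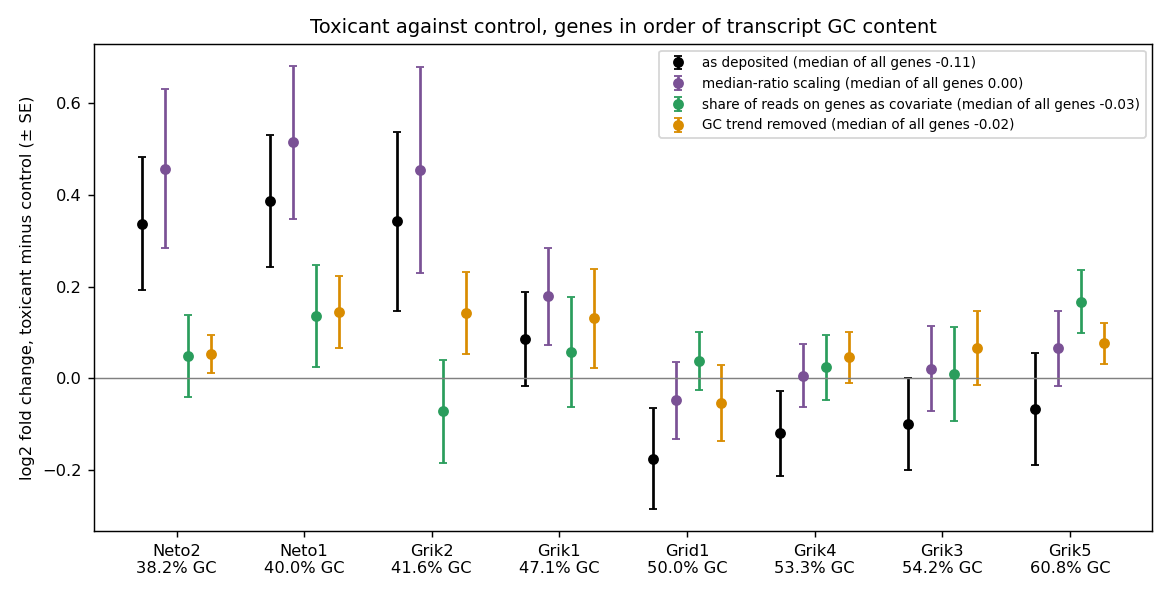
Log2 fold change of toxicant minus control with its SE (vertical axis) for the 8 members in order of transcript GC content (horizontal axis), as deposited and under 3 other treatments of the data. As deposited (black) the values are 0.34 to 0.39 for the 3 genes of lowest GC content and lowest for Grid1 (-0.18), with Grik5 at -0.07 at the high-GC end; with the covariate fitted (green) those of Neto2, Neto1 and Grik2 lie between -0.07 and 0.14.

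Genes most like each member in pattern over the 11 libraries were found by Pearson r of the same centred levels, among named genes averaging 1 RPKM or more. They were Tut4, Slc25a36 and Ythdc2 for Grik2 (r of 0.997 each), Ythdc1, Gcc2 and Zfp292 for Neto2 (r of 0.994 each) and Ncam2, Tcaf1 and Cdh12 for Neto1 (r from 0.970 to 0.976). For Grik5 they were Pex6, Rtn4rl2 and Dlgap3 (r from 0.983 to 0.988), and for Grid1 they included Prmt7 (r = 0.986) and Gfra1 (r = 0.985). Grik4 was most like Acap3, Fmnl1 and the acetylcholinesterase gene Ache (r from 0.953 to 0.957). Grik3 was most like Spats2l, Zfyve19 and Mindy4 (r from 0.924 to 0.939), and the genes most like Grik1 included Tchh (r = 0.882) and Cetn3 (r = 0.859). The genes nearest to Grik2 (41.6% GC) lay between 39.3% and 41.1% GC. Those nearest to Grik5 (60.8% GC) lay above it, between 62.8% and 67.9% GC. Other matches lay on both sides or farther off. Cetn3 was at 39.7% and Tchh at 55.3% GC, against 47.1% for Grik1. Tcaf1 was at 47.5%, against 39.95% for Neto1, and the 3 genes nearest to Grik4 (53.3%) were between 57.0% and 59.8%. All libraries enter each r, so the depth of the libraries and their share of reads on genes are common to all of these genes.

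Genes for proteins that anchor, modify or move kainate receptors had no member past the test. Of 27 measured, 18 had a lower and 9 a higher mean in toxicant libraries, 0 passed the adjusted test, and the median log2 fold change was -0.11, the same as over all genes. C1ql2, a secreted protein of mossy fibres that binds kainate receptors, was at 43.5 ± 12.5 and 30.6 ± 4.42 RPKM (-0.46 ± 0.19 on the log2 scale, limma adjusted p = 0.227), and at -0.10 with the covariate. The scaffold gene Grip1 was at 2.23 ± 0.266 and 2.63 ± 0.243 RPKM (0.20 ± 0.08), and Adarb1, which edits the pore codon of kainate subunit transcripts, at 13.9 ± 1.45 and 12.0 ± 0.895 RPKM (-0.19 ± 0.08). Of the 12 partners of delta receptors, 11 passed the filter, and 6 had a higher mean in toxicant libraries, with 0 past the test and a list median of 0.05. Over all tested genes 30.0% had a log2 fold change above 0 and the median was -0.11. Only 1 of the 11 delta partners lay below that median, and no set test was run. Gopc, a Golgi protein that binds receptor tails, was at 2.96 ± 0.738 and 3.80 ± 0.427 RPKM (0.33 ± 0.13, limma adjusted p = 0.225). For the phosphatase gene Ptpn4 the log2 difference was 0.35 ± 0.17, and for the scaffold gene Magi2 -0.09 ± 0.06. Of the enzymes that make GABA in interneurons, a site of kainate receptors, Gad1 was at 32.1 ± 3.55 and 29.0 ± 3.30 RPKM (-0.14 ± 0.10) and Gad2 at 12.8 ± 3.33 and 16.9 ± 1.58 RPKM (0.42 ± 0.15, limma adjusted p = 0.217). With the covariate the log2 difference was 0.10 for Grip1, -0.06 for Adarb1, 0.09 for Gopc, 0.01 for Ptpn4, -0.06 for Magi2, 0.03 for Gad1 and 0.18 for Gad2. Meg3, a nuclear-retained RNA, had a log2 fold change of 0.81 ± 0.43 and of -0.18 with the covariate.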

How the data were processed

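Poly(A)-selected RNA was sequenced as single reads, per the labels' protocols. The authors deposited 1 RPKM value per gene and library, per the file headers. The aligner and genome build: not given in the sources used here. Columns were matched to samples by the code in each description. Of the values, 98.3% to 98.4% of those above 0 came out as whole reads within 0.05 when multiplied by exon length in GENCODE M21 (41675 of 41743 IDs found), which gave the depth and the share of reads on genes.

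Values were analysed as log2(RPKM + 0.5), a scale on which changes of low genes come out too small. Those averaging 0.5 RPKM or more went into limma 3.58.1 under R 4.3.3 (moderated by eBayes with trend, two-sided, no covariate), with Benjamini-Hochberg adjustment over all 13493 genes and a threshold of 0.05. The fit was tested on simulated data with residuals drawn independently per gene, which lack the variation shared by genes within a library. That test cannot show how the fit behaves under such shared variation. Shares were compared by exact permutation over 462 assignments (smallest p 0.00216), and correlations with 100000 permutations. The design named all samples; identical columns counted once. The members, lists and tests were chosen with earlier results of these data known. Named genes were the 8 members, the 3 genes most like each, the 4 partners per list with the smallest p, and 6 genes fixed by name; 4 genes that this rule picks are not reported here. Promoters are from RefSeq; 5 members had a window used here.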

Additional observations from a re-analysis of the deposited data

Results flagged for a closer look

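Of 28 sets of values (8 member levels and 6 shares in each group), 2 held a library far from the others by Dixon's criterion, where chance flags about 1 set in 20. Neto1 in control 2 was at 17.3 RPKM, with the other controls between 10.3 and 11.5 RPKM. That library had 78.4% of its reads on genes, the lowest share among controls. Grik2 in toxicant 1 was at 2.78 RPKM, with the other toxicant libraries between 4.09 and 4.85 RPKM. That library had 83.8% of its reads on genes, the highest share among toxicant libraries.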

How the results depend on the processing

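Over all genes, the number called higher and lower was 2863 and 6690 with sample weights, 1737 and 4801 with the residual component as covariate, 4 and 9 with the replicate number as a block, 0 and 2 with the nuclear RNA score as covariate, 0 and 9 with 12 columns as deposited, 1 and 0 with a pseudocount of 0.1, and 0 and 2 without controls 1 and 2. Leaving out 1 library gave 0 to 1153 higher and 0 to 3779 lower, the highest counts being those without control 2. The members called numbered 6 with sample weights, 4 with the residual component and 0 to 4 with 1 library left out; the block called 0. Same-numbered libraries deviated together for numbers 1, 2 and 6 (r = 0.62, 0.28 and 0.27) and not for 3 (r = -0.30), so the numbers, which no label ties to a shared source, were not taken as pairs; control 4-5 shared a block with toxicant 4 and 5, and the block changed no call of a member or share.

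Signs turned as follows. With reads on genes as covariate the log2 fold change was -0.072 for Grik2, 0.0091 for Grik3, 0.024 for Grik4, 0.17 for Grik5 and 0.038 for Grid1, and with median-ratio scaling as well it was -0.038, 0.048, 0.065, 0.21 and 0.079. With median-ratio scaling alone it was 0.021 for Grik3, 0.0061 for Grik4 and 0.066 for Grik5, and with the GC trend removed 0.066, 0.046 and 0.076. The cause was not tested. Grik5 was at 0.11 with quantile normalization, 0.092 with the nuclear RNA score, and from -0.17 to 0.0059 with 1 library left out, the latter without control 1. Grik1, Neto1 and Neto2 kept their sign under every alternative run. The difference in share ran from 0.09 to 0.36 points for Grik1, from 0.58 to 2.44 points for Grik2, from -2.20 to 0.0129 points for Grik5, from -0.468 to 0.0602 points for Grik3 and from -0.417 to 1.03 points for Neto1 of the Neto sum with 1 library left out.

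In control libraries alone the log2 ratios were 2.07 (Grik5 over Neto1), 0.29 (Neto1 over Grid1), 0.16 (Grid1 over Grik4), 0.86 (Grik4 over Neto2), 0.15 (Neto2 over Grik3), 0.48 (Grik3 over Grik2) and 1.35 (Grik2 over Grik1), none past the threshold, which 5 libraries cannot reach. With 1 library left out, Neto2 over Grik3 ran from 0.36 to 0.50. Depth limits Grik1 most, with 157 reads in the library that had fewest. The differences lay within 2 SE of 0 for Grik1, Grik2, Grik3, Grik4, Grik5 and Grid1.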
